A study of Mus musculus with 2 samples.

Results

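Keratinocytes of the upper hair follicle and isthmus were studied, the cells between the surface epidermis and the bulge, from which the hair canal and the duct of the sebaceous gland arise. They numbered 1638 of 18186 barcodes, 841 from control and 797 from induced skin. The members were picked by transcript counts of unique molecular identifiers (UMIs) in each barcode. A barcode needed at least 1000 UMIs, at least 500 detected genes and less than 15% mitochondrial UMIs, which 10436 barcodes met. Per 10000 UMIs it needed at least 50 of Krt5 plus Krt14 and at least 1 of Sox9, with less than 50 of Krt1 plus Krt10, less than 5 of Krt75 and less than 20 of Col1a1 plus Col3a1. At least 3 of the upper follicle genes Plet1, Lrig1, Lgr6, Fst, Pthlh and Sostdc1 had to be detected, and no more than 2 of the outer root sheath and bulge genes Lhx2, Tbx1, Lgr5, Nfatc1, Shisa2 and Edn2. Levels of these rule genes are given below as a description only.

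Back skin of 3-day-old mice was the source, in 1 library of genotype Wildtype (the control) and 1 library of the genotype named miR-200b induced. Both libraries carried the treatment label Dox, so this agent is shared by both groups. Epidermis and dermis were dissociated separately and mixed at 30 to 70 for single-cell libraries of the 10x 3′ kind, which count messages from their polyadenylated end. The labels used here give neither the construct and the promoter behind the induction nor how many animals each library held.

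The upper follicle holds several neighbouring keratinocyte populations. Lrig1 and Plet1 are known markers of the junctional zone and isthmus, Lgr6 marks stem cells of the isthmus, and Krt79 and Gata6 mark the lining of the hair canal and the sebaceous duct. MicroRNA-200b belongs to a family that is abundant in epithelia and represses target messages through its seed, a few bases close to the 5′ end that pair with sites in their 3′ untranslated regions (UTRs).

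With 1 library per group there is no replicate and no test between the groups, and every interval below is a 95% interval for counting error only. The control library held 100409201 UMIs and the induced library 119705137. Upper follicle cells had a median of 15562 UMIs in the control and 19437 in the induced library, and their summed counts were 15022023 and 16842247 UMIs. A total of 74 barcodes occurred in both libraries, among them 2 control and 1 induced upper follicle cells, and without them the counts of genes past the call rule below changed by at most 4. Of the members, 77 control and 75 induced cells were among the 7% of barcodes with the highest doublet scores of their library and were kept, as the rule asks. Male-specific transcripts were present in both libraries, with Ddx3y at 61.0 and 29.0 counts per 1000000 UMIs (CPM) in the members, and Xist had 3 and 0 UMIs.

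The labelled identity was checked on genes that did not choose the cells. Krt79, a keratin of the hair canal and sebaceous duct, stood at 3507 CPM in control and 1417 CPM in induced upper follicle cells. In cells of the same libraries with the opposite marker pattern (at least 3 outer root sheath genes and at most 2 upper follicle genes, 284 control and 155 induced cells, called outer root sheath cells here) Krt79 stood at 199 and 631 CPM. With every cell thinned to 5000 UMIs, 74.1% of control and 36.6% of induced upper follicle cells held a Krt79 UMI (87.8% and 63.4% unthinned). The same share was 15.6% and 16.5% in fibroblasts, a cell type that should lack the gene, whose median depths were 9571 and 6282 UMIs. Gata6, a transcription factor of the sebaceous duct, was detected in 13.3% and 7.83% of thinned upper follicle cells (25.6% and 18.6% unthinned), against 0.260% and 1.10% of fibroblasts. Cd34, a surface marker of the adult bulge, was at 0.932 and 0.653 CPM. In outer root sheath cells Gata6 was seen in 0.766% and 4.90% of thinned cells, with 2.49 and 16.1 CPM against 32.4 and 14.7 CPM in upper follicle cells. Both duct markers thus stood above the outer root sheath level in the control. In the induced library Krt79 did, and Gata6 did not in CPM, so there the label rests on fewer cells and on the rule. Krt79 was not private to the members. Basal cells with Sox9 below the rule's minimum held it at 1350 CPM in the control and 161 CPM in the induced library. It was seen in 42.8% and 17.96% of these cells after thinning. Each value lay below that of the members of the same library, but the control share was above the 36.6% of induced members.

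**Figure D1:**
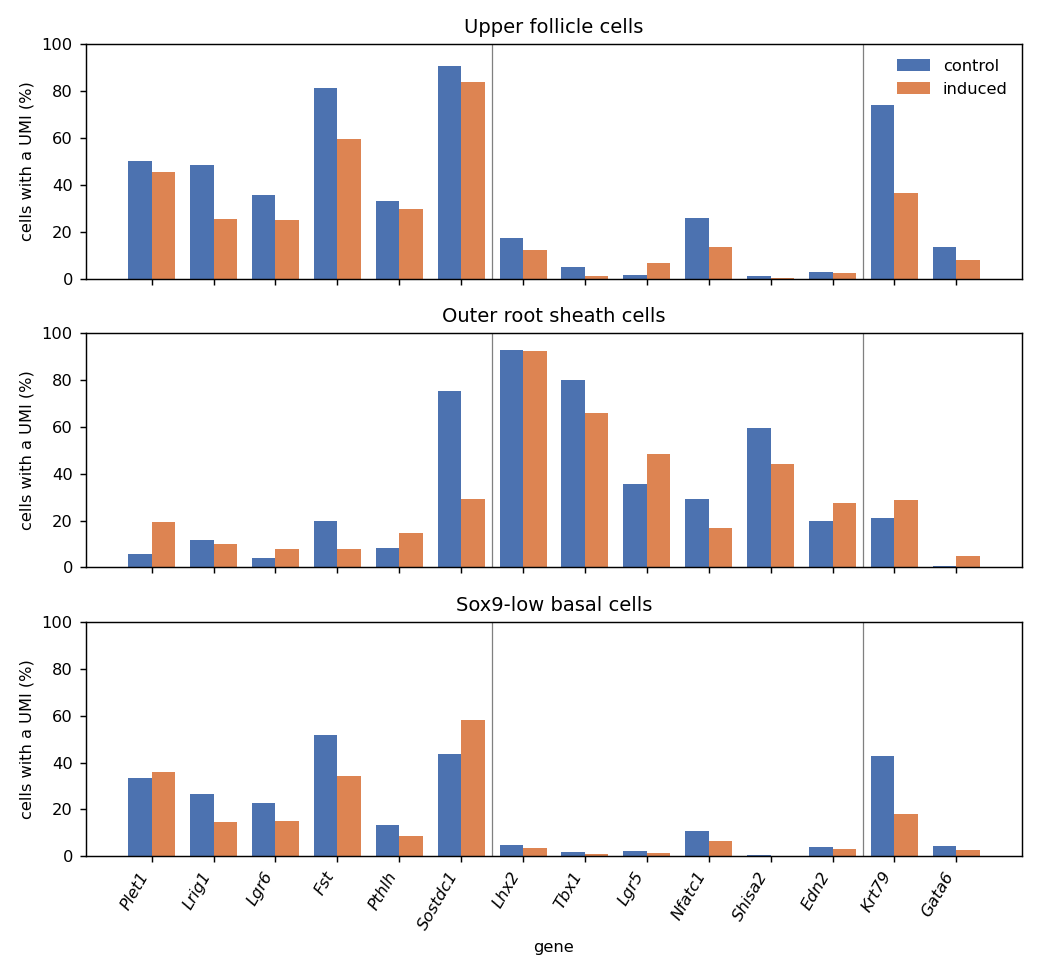
Share of cells with at least 1 UMI of each gene after thinning every cell to 5000 UMIs, in upper follicle, outer root sheath and Sox9-low basal cells of the control and induced libraries. The 6 upper follicle genes of the rule stand left, the 6 outer root sheath genes in the middle, and Krt79 and Gata6, which the rule did not use, right. Krt79 was found in 74.1% of control and 36.6% of induced upper follicle cells.

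The rule genes show what kind of cells it drew. Fst, a secreted activin antagonist, was at 917 CPM in control and 347 CPM in induced members, and Sostdc1, an inhibitor of BMP and Wnt signalling, at 1065 and 880 CPM. Lrig1, an inhibitor of the EGF receptor, was at 133 and 53.0 CPM, Plet1, a surface protein, at 247 and 140 CPM, and Lgr6, a receptor of R-spondins, at 91.7 and 63.4 CPM. Pthlh, a parathyroid-hormone-related ligand, was at 119 and 114 CPM, and Sox9, a transcription factor of follicle progenitors, at 422 and 328 CPM. The median cell held 1.13 Plet1 UMIs per 10000 in the control and 0.989 in the induced library, nearer to each other than the sums, and 53.7% of the control UMIs lay in the 84 cells with most of it.

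All 6 upper follicle genes were detected in 200 control and 131 induced members, and 164 and 222 members just met the minimum of 3. Another 113 control and 123 induced cells stayed outside with 2 of the genes, and 279 and 186 stayed outside with 3 outer root sheath genes. At that lower edge, members with 3 genes had 6621 CPM of Krt79 in the control and 2091 CPM in the induced library, and cells with 2 genes had 4486 and 2507 CPM. Cst6, a cysteine protease inhibitor, was at 4892 CPM inside and 4924 CPM outside in the control, and at 676 and 3069 CPM in the induced library, so its induced level depends on where the rule cuts. The markers are not private to Sox9-positive cells. Among basal cells with Sox9 below the rule's minimum (Sox9-low basal cells, 1111 control and 1328 induced), 33.3% of the thinned control cells and 22.5% of the thinned induced cells held at least 3 of the 6 genes, against 77.2% and 54.9% of the thinned members.

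Upper follicle cells made up 39.0% of Sox9-positive basal cells in the control library (841 of 2157, exact Clopper-Pearson interval 36.9 to 41.1) and 51.1% in the induced library (797 of 1559, 48.6 to 53.6). When each cell was thinned to 5000 UMIs before the rule was applied, the shares were 40.7% and 36.4%, the opposite order. Detection of markers grows with depth and the induced cells were deeper, so no direction is read from this share.

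The induction was checked on Gm13648, a spliced noncoding transcript of the minus strand of chromosome 4 (GENCODE vM21, GRCm38, chr4:156052715-156059802). The mature miR-200b-3p lies within it on the same strand at chr4:156055685-156055706, between its 2 annotated exons, that is in its intron. The microRNA itself is not read by this method. Its RefSeq sequence (GRCm38.p6) is shown because its seed, bases 2 to 8, in capitals, defines the target sites examined below.
mmu-miR-200b-3p: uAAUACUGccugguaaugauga

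Gm13648 was at 3.66 CPM in control upper follicle cells (interval 2.76 to 4.77) and at 609 CPM in induced ones (597 to 621). In thinned cells it was seen in 2.62% of control and 83.1% of induced members (5.95% and 90.7% unthinned), and in 0% and 10.99% of fibroblasts, where 0 of 385 control cells allows 3 cells, a share of up to 0.779% with a UMI. The transcript was thus high in the library labelled induced. Whether its reads came from the chromosome or from a construct with the same sequence was not tested. In the induced library the transcript stood at 358 CPM in outer root sheath cells and at 706 CPM in Sox9-low basal cells, so upper follicle cells lay between these gates.

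A level filter, a mean of 20 CPM or more over the libraries, left 5862 genes, of which 126 (2.15%) were called higher and 251 (4.28%) lower in induced than in control upper follicle cells, 6.43% in all. A gene was called when its CPM plus 5 differed by at least 2-fold and the Poisson intervals did not overlap. The median log2 ratio of all genes tested was -0.07, with 5% of genes below -0.93 and 5% above 0.70, and 3419 of the 5862 genes had a ratio under 0. These counts describe 2 libraries, and batch, animal and induction cannot be told apart in them.

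**Figure D2:**
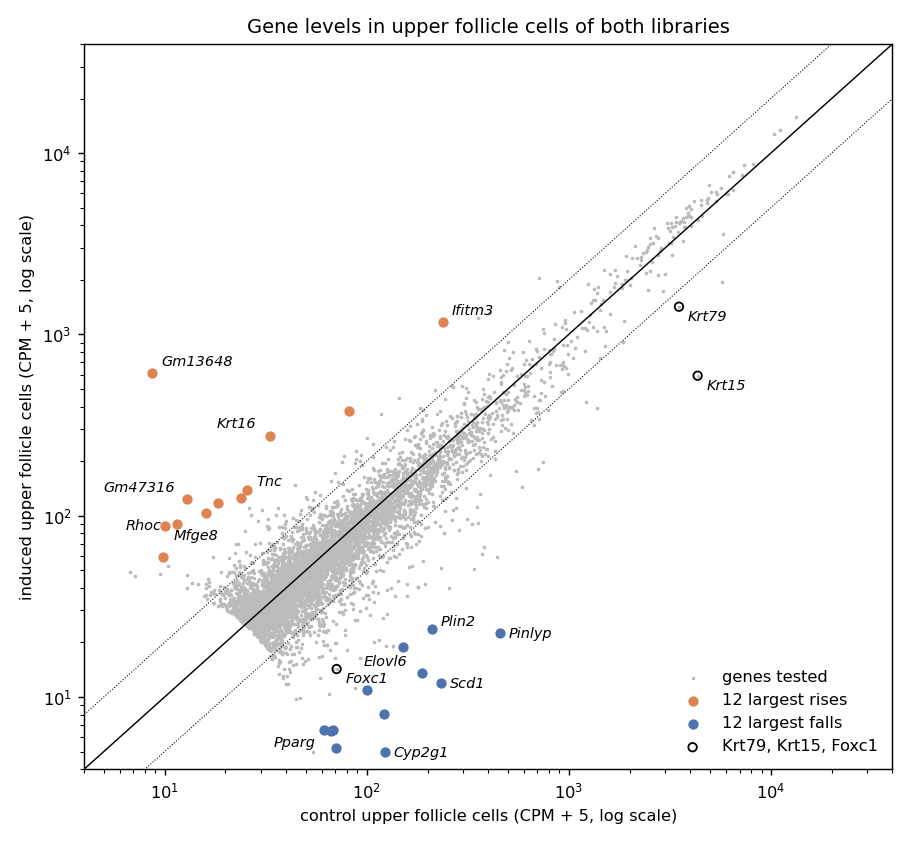
CPM plus 5 of each tested gene in control (horizontal) and induced (vertical) upper follicle cells, both axes on log scales, with the line of equality and dotted lines at 2-fold. The 12 largest falls and 12 largest rises are filled, and Krt79, Krt15 and Foxc1 are ringed. Gm13648 lies farthest above the line, at 3.66 CPM in the control and 609 CPM in the induced library.

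Of the 12 largest falls, 6 are on the list of sebaceous gland genes (Scd1, Elovl6, Soat1, Pparg, Plin2 and Acsbg1). Cyp2g1, a cytochrome P450, had 1770 UMIs in control members (118 CPM), from 54 cells, and none in induced members. With a floor of 3 counts put in place of 0 over the induced cells, this is 661-fold lower. Scd1, a desaturase that makes monounsaturated fatty acids, went from 228 to 7.01 CPM (log2 ratio -4.28). Elovl6, an elongase of fatty acids, stood at 182 and 8.55 CPM, and Elovl3, an elongase of longer chains, at 65.4 and 0.238 CPM. Pparg, the nuclear receptor that drives sebocyte differentiation, stood at 56.7 and 1.54 CPM. The lipid droplet coat protein Plin2 stood at 205 and 18.6 CPM, Acsbg1, an acyl-CoA synthetase, at 146 and 13.8 CPM, and Soat1, which esterifies cholesterol, at 61.4 and 1.48 CPM. Among the 4 largest were also Pinlyp (451 and 17.6 CPM) and the secreted carbonic anhydrase Car6 (116 and 3.03 CPM). The others of the 12 were the steroid dehydrogenase Hsd17b2 (95.5 and 5.94 CPM) and the aldehyde dehydrogenase Aldh3a1 (63.1 and 1.60 CPM). Several of these calls depended on how the cells were chosen or summed. Cyp2g1, Elovl3, Car6, Pinlyp and Soat1 were not called with the rule applied after thinning to 5000 UMIs, and all of these but Pinlyp were not called with a mean over cells. Soat1 also lost its call with the highest doublet scores left out, where its control level was 32.3 CPM. Car6 and Pinlyp were not called with at least 4 upper follicle genes either, and Car6 changed sign there (0.27), with the rule applied after thinning (0.13) and without cells holding sebaceous genes (0.24). Scd1 and Elovl6 were called after thinning and with a mean over cells. With the rule applied after thinning, Scd1 was at 38.8 CPM in the control and 7.93 CPM in the induced library, and Elovl6 at 52.2 and 7.30 CPM.

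Several of these genes were more abundant in control Sox9-low basal cells, and lower there in the induced library too. In Sox9-low basal cells Scd1 stood at 1216 CPM in the control and 3.32 CPM in the induced library, Elovl6 at 1168 and 5.96 CPM, Soat1 at 318 and 1.05 CPM and Plin2 at 310 and 11.6 CPM. Cyp2g1 stood there at 551 and 0.0307 CPM. In outer root sheath cells Scd1 stood at 13.5 and 5.54 CPM and Plin2 at 70.1 and 34.2 CPM. Pinlyp and Car6 were low in both other gates, with Pinlyp at 14.1 CPM and Car6 at 1.86 CPM in control Sox9-low basal cells.

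Of 15 sebaceous gland genes, 9 passed the level filter. Called lower were 8 of them, none was called higher, and their median log2 ratio was -3.15, beside 4.28%, 2.15% and -0.07 over all genes. Because the filter takes the mean of both libraries, a gene abundant in the control alone could pass through it only by differing. This count and this median are therefore a description and no result about the list. The summed level of the 15 genes was 1705 CPM in the control and 187 CPM in the induced members. Awat1 and Scd3 were the members of the list with 0 UMIs in induced cells. Fasn, fatty acid synthase, was not called, at 37.5 and 23.5 CPM.

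Few cells carried most of these messages. The 84 control cells richest in Scd1 held 96.4% of its UMIs, and Car6 had its 1748 control UMIs in 26 cells. Pinlyp was found in 84 control and 80 induced cells, with 6779 and 296 UMIs in all. Those cells were counted unthinned and at unlike depths, so no share is compared. Plin2 was spread more widely, with a median of 0.816 UMIs per 10000 in control cells and 0 in induced cells. At 5000 UMIs, 57.5% of control and 16.1% of induced upper follicle cells held UMIs of at least 2 of the 15 genes (87.8% and 58.3% unthinned). The background in fibroblasts was 24.2% and 18.7%, and Sox9-low basal cells held 37.6% and 11.47%. The induced share in members was thus not above the fibroblast background.

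Leaving out every cell with 2 or more sebaceous genes, and the cells under 5000 UMIs, left 341 control and 654 induced cells. There 119 genes were called higher and 246 lower, of which 88 and 177 were also called in all members. Of the 12 largest falls, Plin2 and Acsbg1 were still called, and Aldh3a1 (32.9 and 0.501 CPM) dropped under the level filter. Scd1 was then at 9.46 and 5.08 CPM, and Pinlyp at 6.48 and 10.95 CPM, the opposite order. All 12 largest rises were still called without these cells. This selection uses the sebaceous genes themselves, so what is left of them there is no result.

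Most rises were not carried by a few cells. Ifitm3, an interferon-inducible membrane protein, was at 233 CPM in the control and 1166 CPM in the induced members, and the median cell held 1.74 and 9.88 UMIs per 10000. Krt16, a keratin of stressed and hyperproliferative epidermis, was at 28.4 and 272 CPM. Its induced UMIs were concentrated, with 91.1% of them in 80 cells. Krt16 was still called with the rule applied after thinning, at 13.5 and 77.2 CPM, and with at least 4 upper follicle genes, at 28.1 and 146 CPM. Rhoc, a small GTPase of the actin cytoskeleton, was at 6.46 and 84.9 CPM, and the 80 induced cells richest in it held 42.8% of its UMIs. Mfge8, a secreted bridging protein in the clearance of dying cells, was at 4.99 and 83.2 CPM, and the matrix glycoprotein tenascin C (Tnc) at 20.6 and 134 CPM.

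The other rises included Map1b, a microtubule-associated protein, at 13.4 and 112 CPM, and Efcab1 at 11.05 and 98.98 CPM. Crip1 was at 76.4 and 371 CPM, Ndufa4l2, a mitochondrial protein induced by low oxygen, at 18.8 and 121 CPM, and Cpxm2 at 4.79 and 54.0 CPM. The long noncoding RNA Gm47316 was at 7.86 and 118 CPM. Krt16 also stood higher in induced outer root sheath cells (12.1 and 499 CPM) and in induced Sox9-low basal cells (38.2 and 233 CPM), and it was seen in 15.4% of thinned induced fibroblasts against 20.3% of thinned induced members (36.6% unthinned). That share is near the background, while the CPM differed.

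Tnc and Rhoc varied between the gates. Tnc stood at 109 CPM in control and 79.0 CPM in induced outer root sheath cells, whereas in Sox9-low basal cells it stood at 26.9 and 151 CPM. Rhoc stood at 55.5 and 93.1 CPM in outer root sheath cells and at 2.74 and 67.4 CPM in Sox9-low basal cells. Whether these contrasts differ between the gates was not tested.

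The duct and hair canal genes outside the rule depended on how the cells were chosen. Of 8 such genes 6 passed the filter. Called lower were 3 and higher 1, beside 4.28% and 2.15% of all genes tested, and the median log2 ratio was -1.12. With the rule applied after thinning to 5000 UMIs (the thinned rule, 787 control and 482 induced cells), 1 was called lower and the median was 0.08. Krt79 had a log2 ratio of -1.30, but with the thinned rule it was at 2122 and 1392 CPM and not called, and neither was it with a mean over cells (-0.96). The median cell held 5.13 Krt79 UMIs per 10000 in the control and 0.484 in the induced library. Its UMIs were concentrated, with 80.4% of the control and 93.7% of the induced UMIs in the 10% of cells that held most.
Cst6 was at 1375 and 386 CPM, but with the thinned rule at 950 and 1084 CPM, the opposite order, with a median of 0 per cell in both libraries and 98.2% and 97.2% of its UMIs in that top 10% of cells. Gata6 was not called, at 32.4 and 14.7 CPM, but was called lower with at most 1 outer root sheath gene allowed (-1.19) and with 1 CPM added (-1.09). Defb6, a beta-defensin, was called higher, at 27.7 and 80.2 CPM, from 30 control and 75 induced cells, but without the cells that held sebaceous genes it was at 13.8 and 18.03 CPM and not called.

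Krt15, a keratin of basal and bulge cells, differed across most cells. It stood at 4339 CPM in control and 587 CPM in induced members, a log2 ratio of -2.88. The interquartile range was 24.6 to 57.0 UMIs per 10000 in control cells and 0.540 to 9.57 in induced cells, so these ranges did not overlap. Krt15 was also lower in induced outer root sheath cells, at 3752 and 2011 CPM, and in induced Sox9-low basal cells, at 5973 and 301 CPM. Krt17, a keratin of the follicle, was not called, at 3782 and 4994 CPM. Of the bulge and sheath list outside the rule, 4 of 9 genes passed the filter, and Il11ra1, an interleukin-11 receptor chain, was the other one called lower, at 96.1 and 35.5 CPM.

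Transcription factors of the follicle leaned low. Of 15 listed, 13 passed the filter, 2 were called lower and 11 had a log2 ratio under 0, with a median of -0.75. Over all genes tested, 4.28% were called lower and 3419 of 5862 were under 0. Foxc1, a forkhead factor of follicle stem cells, was at 66.0 CPM in control and 9.26 CPM in induced members. Id2, an inhibitor of basic helix-loop-helix factors, was at 58.1 and 18.1 CPM. With the thinned rule Foxc1 was still called, at 62.9 and 12.06 CPM, and Id2 was not, with a log2 ratio of -0.68 against -1.45. Nfib, a stem cell factor with 3 seed matches of miR-200b in its UTR, was not called, at 914 and 477 CPM.

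Signalling lists moved little, and beside the 2.15% and 4.28% of all genes called, 1 call in such a list is no result about the list. Of 14 BMP genes 7 passed the filter, and Id2, which is on this list too, was the only call. Of 24 Wnt genes 10 passed and 2 were called higher, the ligands Wnt7b (38.01 and 91.8 CPM) and Wnt10b (10.7 and 31.1 CPM), and neither was called without the cells that held sebaceous genes, at 0.94 against 1.17 and 0.71 against 1.198. None of 3 hedgehog genes tested was called. Of 11 Notch genes 5 passed, and the target gene Hes1 was called lower, at 180 and 84.5 CPM, though not with the thinned rule, where its log2 ratio was -0.70 against -1.05. Nor was Hes1 called with a mean over cells (-0.815) or after centring on the median of all genes (-0.97). Of 13 EGF receptor genes 7 passed, and the receptor Egfr itself, with 2 seed matches, was called lower, at 31.6 and 10.5 CPM.

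Genes of basal adhesion leaned high, where 2.15% of all genes tested were called higher. Of 10 genes of basal adhesion all passed the filter and 3 were called higher, with a median of 0.87. Among these were Col17a1, a hemidesmosomal collagen (178 and 389 CPM), and the laminin chain Lamb3 (82.6 and 191 CPM). None of the 3 was called without the cells that held sebaceous genes, where the median was 0.54, Col17a1 was at 0.73 against 1.11 and Lamb3 at 0.80 against 1.16. After centring on the median of all genes 5 were called higher, and with the thinned rule Lamb3 alone was. Of 12 junction genes 7 passed and P-cadherin (Cdh3) was called higher, at 47.5 and 107 CPM, though not with the thinned rule (0.91 against 1.09), with a list median of 0.22, while Epcam was at 503 and 739 CPM and not called. Of 13 suprabasal genes 9 passed. Krtdap (891 and 1821 CPM), Lor (27.4 and 79.0 CPM) and Flg (7.92 and 35.1 CPM) were called higher and the desmosomal cadherin Dsg1a lower (69.4 and 31.9 CPM), but the 3 rises were not called once the barcodes with the highest doublet scores had been left out. There Krtdap kept nearly its size, with a log2 ratio of 0.94 against 1.03, Lor was at 0.58 against 1.37, and Flg turned to -0.66 from 1.63 and changed sign under 5 of 10 alternatives. Dsg1a, at -1.01, was not called under 4 of the 10, where it lay between -0.94 and -0.51.

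Genes of lipid and sterol synthesis leaned low as a list. Beside them, 3419 of all 5862 genes tested had a ratio under 0 and 4.28% were called lower. Of 16 genes 13 passed, 12 had a ratio under 0 and 2 were called lower, the sterol enzyme Fdps (167 and 75.9 CPM) and the desaturase Scd2 (29.6 and 11.99 CPM). The median of the 13 was -0.81. Neither was called with the thinned rule, with a mean over cells or without the cells that held sebaceous genes, where Fdps lay between -0.99 and -0.83 against -1.08, and Scd2 between -0.67 and -0.57 against -1.03. Scd2 kept its call under only 3 of 10 alternatives.

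Cell cycle genes leaned low. For comparison, 4.28% of all genes tested were called lower and 3419 of 5862 had a ratio under 0. Of 16 genes of G2 and mitosis 14 passed the filter, all 14 had a ratio under 0, and 3 were called lower, with a median of -0.85. Called were Ccnb1, cyclin B1 (71.1 and 23.6 CPM), Cdc20, an activator of the anaphase-promoting complex (120 and 50.6 CPM), and the kinase Plk1 (33.4 and 12.7 CPM). Mki67 was at 129 and 70.8 CPM and Top2a at 242 and 119 CPM, both short of the call. With the thinned rule Ccnb1 was still called, and Cdc20 and Plk1 fell short, at -0.98 against -1.17 and at -0.87 against -1.12. Of 16 genes of S phase 14 passed, all were under 0, and 4 were called lower, among them Rrm2, a subunit of ribonucleotide reductase, at 94.3 and 26.1 CPM, with a list median of -0.82, and 7 were called with the thinned rule.
At 5000 UMIs, 34.9% of control and 19.3% of induced members held at least 2 UMIs of the G2 and mitosis genes (49.6% and 39.7% unthinned), against 8.57% and 0% of fibroblasts, where 0 of 91 induced cells allows 3 cells, or up to 3.30%. Without the cells that held sebaceous genes, 11 genes of the G2 and mitosis list were called lower, with a median of -1.15, and 7 were called lower with at most 1 outer root sheath gene allowed.

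**Figure D3:**
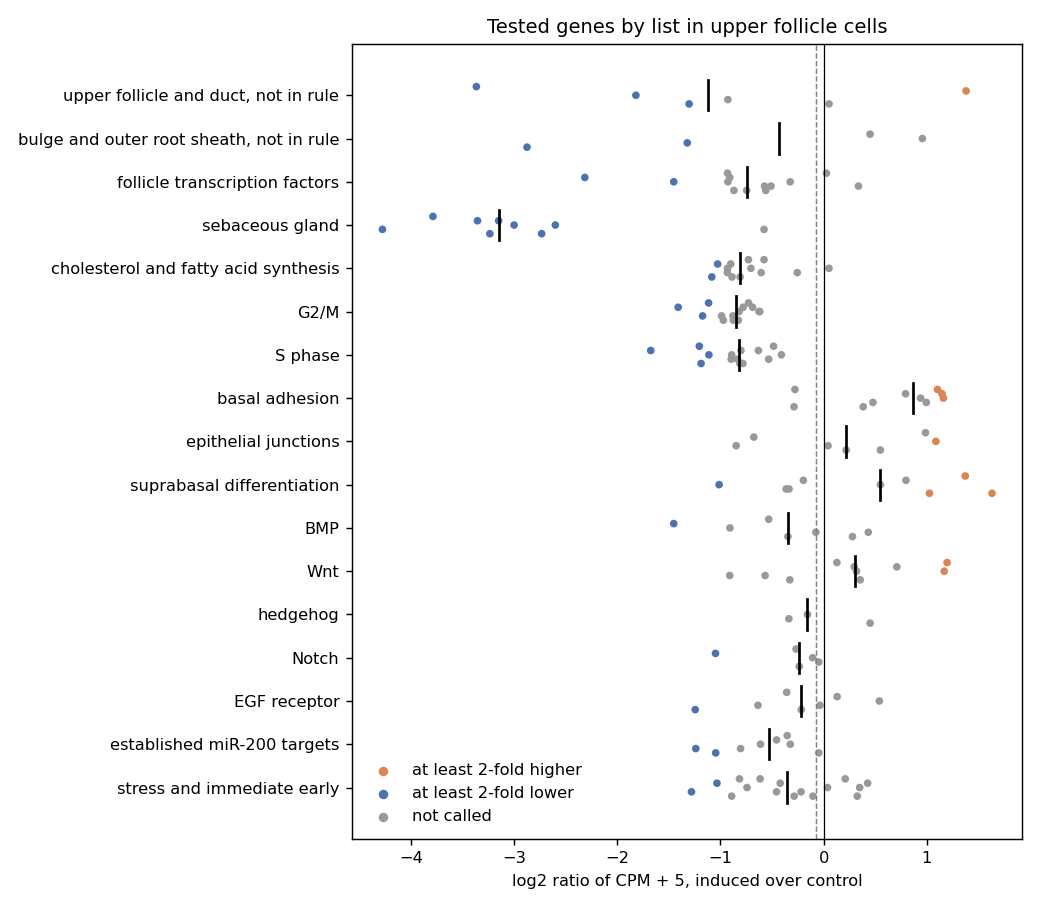
Log2 ratios of CPM plus 5, induced over control, for tested genes of each list in upper follicle cells, 1 point per gene, with black bars at list medians and a dashed line at the median of all tested genes (-0.07). The sebaceous gland list lies farthest left with a median of -3.15, and the basal adhesion list lies right at 0.87. Medians cover only genes past the level filter, which a gene abundant in 1 library alone passes by differing.

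Induced upper follicle cells were then arranged by their own Gm13648 count at 5000 UMIs, where 132 cells had none, 354 had 1 to 3 and 293 had 4 or more. These bins are ranges of a count within 1 library and not cell types, and their median depths were 15814, 20503 and 19880 UMIs. The 132 cells were not free of the transcript: with all their UMIs they had 166 CPM of Gm13648, against 547 and 860 CPM in the other bins.
Krt79 was at 6135 CPM in the cells with none, above the control library's 3507 CPM, and at 868 and 284 CPM in the others. Cst6 followed the same order, at 1531, 262 and 100 CPM. In induced members 93.7% of Krt79 UMIs and 97.2% of Cst6 UMIs lay in the 10% of cells that held most. These sums thus describe few cells, and whether the bins held different kinds of cells was not tested. Foxc1 was at 44.1, 4.94 and 1.25 CPM, and the first of these was nearest to the control level of 66.0 CPM. Krt15 was at 1166, 538 and 410 CPM, under the control level in every bin.

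Several rises had the reverse order across the bins. Tnc was at 60.3, 136 and 161 CPM and Rhoc at 48.2, 84.1 and 101 CPM, and Ifitm3 at 744, 1173 and 1322 CPM. Krt16 was at 186, 239 and 347 CPM, with 91.1% of its induced UMIs in 80 cells. Mfge8 showed no order, at 85.8, 85.8 and 77.5 CPM. Each of these was above its control level in all 3 bins. Of the falls, Scd1 was at 13.4, 6.34 and 5.46 CPM, beside 228 CPM in the control. Pinlyp was at 55.8, 15.8 and 5.15 CPM, beside 451 CPM in the control. Elovl4, an elongase of very long chains on the sebaceous list, was at 105, 36.2 and 35.4 CPM, beside 333 CPM in the control, a level that was 38.4 CPM with the thinned rule, where Elovl4 was not called, and 12.45 CPM against 25.1 CPM in induced cells without the cells that held sebaceous genes. Each of these was highest in the cells with no Gm13648 UMI, as Krt79 was.

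**Figure D4:**
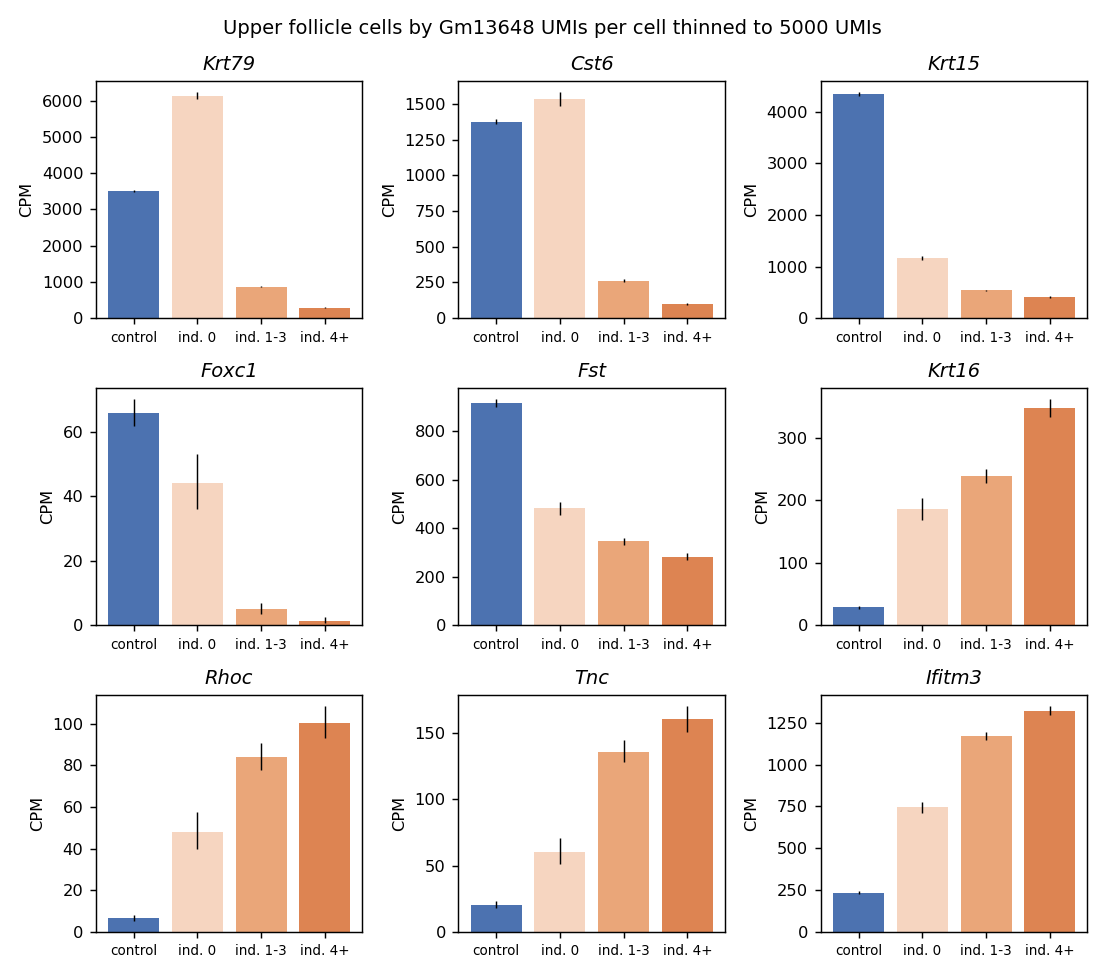
CPM of 9 genes in control upper follicle cells and in induced cells (ind.) with 0, 1 to 3 and 4 or more Gm13648 UMIs after thinning to 5000 UMIs. Bars start at 0 and error bars are exact Poisson 95% intervals. Krt79 was at 6135 CPM in induced cells with none and at 284 CPM in those with 4 or more, and Rhoc at 48.2 and 101 CPM. Of the induced Krt79 UMIs, 93.7% lay in the 10% of cells that held most.

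Gata6 divided the members along the duct markers in both libraries. In the control, the 107 members with a Gata6 UMI at 5000 UMIs had 8072 CPM of Krt79 and the 696 without had 2765 CPM. In the induced library the 61 members with Gata6 had 6004 CPM and the 718 without had 1099 CPM. Krt17 was also higher beside Gata6, at 7007 against 3242 CPM in the control and 9813 against 4660 CPM in the induced library. Among members with Gata6, Foxc1 was at 103 CPM in the control and 43.6 CPM in the induced library, and among those without it at 59.8 and 6.89 CPM. Gm13648 was at 449 CPM in induced members with Gata6 and at 622 CPM in those without. Krt15 was at 4371 and 4337 CPM in control members with and without Gata6, and at 1407 and 524 CPM in induced ones.

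Target sites of miR-200b were sought as the letters CAGTATT, the match to its seed, on the sense strand of the longest annotated 3′ UTR of each gene (GENCODE vM21, GRCm38). Established targets of the family were taken as a list, whether or not their longest UTR held this match. Of 17, 8 passed the level filter, all 8 had a log2 ratio under 0, and 2 were called lower, with a median of -0.53. Among all 5862 genes tested, 3419 had a ratio under 0 and 4.28% were called lower. Cfl2, a cofilin that severs actin filaments, was at 80.1 CPM in control and 36.2 CPM in induced members, with 0.663 and 0.188 UMIs per 10000 in the median cell. Qk, an RNA-binding protein that controls splicing, was at 140 and 56.5 CPM, with a median of 1.32 and 0.478 UMIs per 10000. Msn, moesin, which ties actin to the membrane, was at 106 and 58.6 CPM, and Marcks, a substrate of protein kinase C, at 239 and 154 CPM, both short of the call. With the thinned rule, with a mean over cells and after centring, Qk alone was called, and Cfl2 fell short at -0.86, -0.96 and -0.97, against -1.05. Zeb1 and Zeb2, the family's best known targets, were at 0.133 and 0.356 CPM and at 0.932 and 2.20 CPM, too low to read.

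The longest UTR held 2 matches in Cfl2, 3 in Qk, 2 in Msn and 1 in Marcks. A site of each is printed to show the match, with the bases pairing to the seed in capitals together with a following A where the gene has one. The Cfl2 site lies at chr12:54860748-54860769 on the minus strand, that of Qk at chr17:10207044-10207065 on the minus strand, that of Msn at chrX:96167902-96167923 on the plus strand and that of Marcks at chr10:37135803-37135824 on the minus strand. All are in the 3′ UTR of their gene.
Cfl2: tgggagacttgtttCAGTATTA
Qk: gacttttttcctgaCAGTATTA
Msn: cttttaatttttacCAGTATTA
Marcks: tttttttttggcatCAGTATTA

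Of 5784 tested genes with a 3′ UTR, 902 held the match and 4882 did not. Genes with the match had a median log2 ratio of -0.28 and those without it -0.05, a difference of -0.23. Under 0 were 76.2% of the genes with a match and 55.3% of those without. Of the genes with a match 7.87% were called lower and 0.776% higher, against 3.63% and 2.27% of those without. The 207 genes with the 8-base match CAGTATTA had a median of -0.36.
The median was -0.24 for the 732 genes with 1 match, -0.39 for the 137 with 2 and -0.54 for the 33 with 3 or more. Genes with a match had longer UTRs, with a median of 2556 bases against 933 bases. With the genes split by UTR length into 3 equal classes, the difference was -0.39, -0.28 and -0.19 from short to long.

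The same split was made for other microRNAs. It was -0.14 for the match of miR-200a (CAGTGTT), which lies in the same intron, 0.04 for let-7 (CTACCTC) and -0.02 for miR-9 (ACCAAAG). For miR-200b it was -0.13 in outer root sheath cells and -0.22 in Sox9-low basal cells. Among the bins of induced members it was -0.13 in the cells without Gm13648 at 5000 UMIs, -0.24 in those with 1 to 3 and -0.26 in those with 4 or more. A match is a description of letters and does not show that a site is used.

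**Figure D5:**
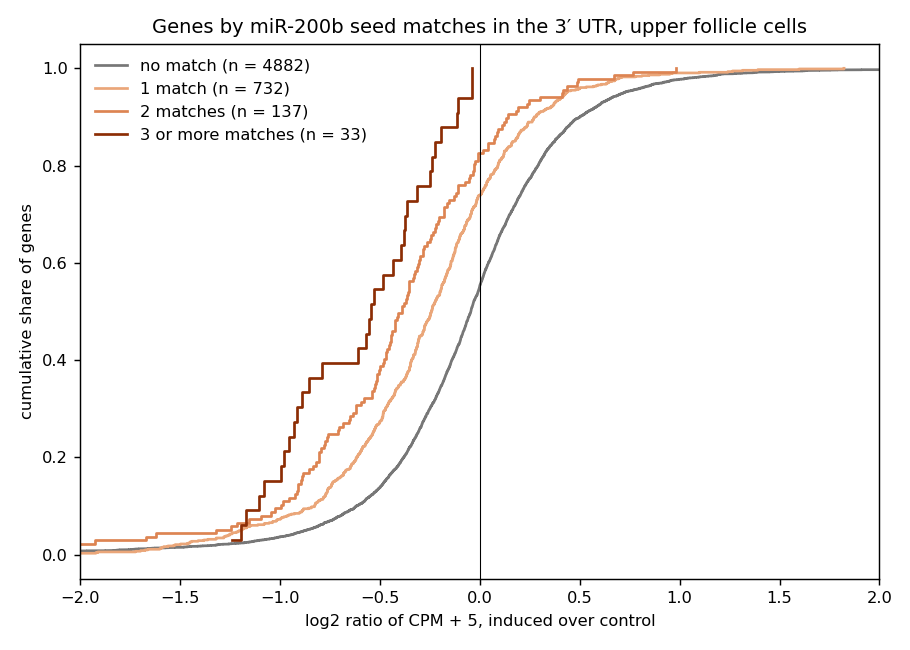
Cumulative share of tested genes (vertical) against their log2 ratio of CPM plus 5, induced over control, in upper follicle cells (horizontal, cropped at -2 and 2), by the number of miR-200b seed matches in the 3′ UTR. The curves lie farther left with more matches, with medians from -0.05 without a match to -0.54 with 3 or more.

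Upper follicle cells were last compared with their neighbours within each library, leaving out the rule genes. Since the gates were cut from the same counts, these ratios are a description. Against outer root sheath cells, 51 of 5409 genes (0.943%) were called higher in both libraries and 105 (1.94%) lower in both. Among the 10 highest, Cdh13, T-cadherin, was at 64.4 CPM in control and 85.4 CPM in induced members and at 2.49 and 2.52 CPM in outer root sheath cells. Krtdap, a keratinocyte differentiation gene, was at 891 CPM in control members and 98.9 CPM in control outer root sheath cells, the kallikrein Klk7 at 214 and 6.05 CPM, and the calmodulin-like Calm4 at 293 and 49.1 CPM. The water and glycerol channel Aqp3 was at 111 and 14.2 CPM, and the skin-homing chemokine Ccl27a at 477 and 35.2 CPM.
Cst6, Ly6g6c, Clca3a2 and Ahnak2 completed the 10.

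The genes lower in upper follicle cells in both libraries were led by Scrg1, at 0.533 CPM in control members and 124 CPM in control outer root sheath cells. Sfrp1, a secreted Wnt inhibitor of the bulge, was at 17.3 and 667 CPM. The transcription factors Bnc2 (9.45 and 148 CPM) and Trps1 (8.26 and 142 CPM) and the inhibitor Id4 (25.6 and 394 CPM) were lower too. So were Bgn, the matrix proteoglycan biglycan (58.0 and 574 CPM), Nppc, a natriuretic peptide (30.3 and 273 CPM), Hmcn1, 6330403K07Rik and Wfdc18.

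Against Sox9-low basal cells fewer genes were called. Called higher in both libraries were 25 of 5161 genes (0.484%) and lower in both were 3 (0.0581%), a count that was 8 with at least 4 upper follicle genes and 15 with the thinned rule. Krt6a, a keratin of the companion layer and of wounds, was at 90.2 CPM in control and 126 CPM in induced members and at 4.17 and 31.4 CPM in Sox9-low basal cells. Runx1, a transcription factor of follicle stem cells, was at 161 and 128 CPM in the members and 47.3 and 31.4 CPM in Sox9-low cells. The adhesion molecule Alcam was at 288 and 204 CPM, against 87.9 and 46.9 CPM, and the receptor Fgfr1 at 82.6 and 54.0 CPM, against 26.2 and 17.8 CPM. Cald1, Cst6, Klk7, Pla2g7, Krt79 and Sprr1a were the others of the 10 highest.

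The 3 genes lower in members than in Sox9-low basal cells were H19, Igfbp2 and Wnt3. The imprinted noncoding RNA H19 was at 52.7 CPM in control members and 727 CPM in control Sox9-low cells, and at 16.9 and 58.2 CPM in the induced library. Igfbp2, which binds insulin-like growth factors, was at 51.9 and 188 CPM in the control and 48.2 and 188 CPM in the induced library. The Wnt ligand Wnt3 was at 9.79 and 70.2 CPM in the control and 27.4 and 77.9 CPM in the induced library.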

How the data were processed

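The deposited values were raw UMI counts per gene and barcode, made by the authors with Cell Ranger 6.0.0 on build mm10, per the submitters' processing notes. The cell-calling settings are not given in the sources used here. UMIs of the cells chosen by the rule were added up within each library, divided to CPM and given exact Poisson 95% intervals, using Python 3.11.15, numpy 2.4.6, scipy 1.17.1 and pandas 2.3.3, and figures with matplotlib 3.10.9. Ratios are log2 of CPM plus 5. Precision is limited by the summed counts of 15022023 and 16842247 UMIs in members, and fibroblasts were cells with at least 200 Col1a1 plus Col3a1 UMIs per 10000. The steps were tested on simulated counts. Scrublet was run in scanpy 1.11.5 on each library, and its automatic threshold marked 3 and 1 barcodes and was not used. Gene positions and 3′ UTRs came from GENCODE vM21, which held 32158 of 32285 gene identifiers. The members, gene lists and tests were chosen with earlier results of these data known.

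Named genes were the 12 largest rises and 12 largest falls among called genes that had 100 UMIs or more in all and 50 CPM in the higher library, and the 10 highest and 10 lowest against each other gate by the smaller ratio of both libraries, besides list members, leaving out rule genes, haemoglobins, genes of ribosomal proteins, mitochondria and sex chromosomes. Alternatives changed the marker minimum, doublets, depth, level filter, added CPM and centring. The values of 1 called gene are not reported here.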

Additional observations from a re-analysis of the deposited data

Results flagged for a closer look

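In 5 genes the induced library differed from the control in opposite directions in upper follicle and outer root sheath cells, both past 2-fold. The difference between the gates was not tested, and both gates come from the same 2 libraries. Krt79 had a log2 ratio of -1.30 in upper follicle cells and 1.64 in outer root sheath cells, where it was at 199 CPM in the control and 631 CPM in the induced library, but in upper follicle cells it was not called with the rule applied after thinning (-0.61). Timp3, an inhibitor of matrix metalloproteinases, had -1.46 and 1.10, from 357 to 127 CPM in upper follicle cells and from 183 to 399 CPM in outer root sheath cells. Nupr1, a stress-induced nuclear protein, had -1.70 and 1.99, from 121 to 33.8 CPM and from 29.2 to 131 CPM. Psapl1 had -1.31 and 1.41, from 161 to 62.2 CPM and from 17.8 to 55.4 CPM. Bex1 had -1.11 and 2.83, from 87.2 to 37.8 CPM and from 9.61 to 99.1 CPM. In Sox9-low basal cells all 5 were lower in the induced library, by the least for Bex1, at 42.7 and 34.7 CPM.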

How the results depend on the processing

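With at least 4 upper follicle genes the log2 ratio of shares was 0.23, and with the rule applied after thinning it was -0.16, against 0.39 as the rule stands. Without the cells that held sebaceous genes the shares were 28.0% in the control and 52.0% in the induced library. Counts of genes past 2-fold were 65 higher and 128 lower among genes of at least 50 CPM and 294 and 417 without a level filter. Genes lower than in Sox9-low basal cells in both libraries numbered 8 with at least 4 upper follicle genes and 15 after thinning, against 3. Car6 reversed to 0.27 with at least 4 genes, to 0.13 after thinning and to 0.24 without cells holding sebaceous genes, where Pinlyp was 0.48 and Soat1 0.0686. The cause was not tested; Car6 had its control UMIs in 26 cells. Of the other values for the 24 named genes under 10 alternatives, 148 stayed within their counting interval and 87 moved without a change of sign. All 12 named rises were called under each of these 10 alternatives, and the named falls were called in 2 of 12 without sebaceous cells, 7 of 12 after thinning and 8 of 12 with a mean over cells. Of the list counts of at least 2 calls, 88 values stayed within 1.5 times and 32 did not, 8 of them with the rule applied after thinning. The alternatives without sebaceous cells or shared barcodes, and the other microRNAs, were chosen after seeing the data. Depth limits detection of the rule's genes, and Zeb1 and Zeb2 were below what these cells can show. No paired analysis was possible because each group is 1 library.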

Other observations

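Genes of immunity and defence in upper follicle cells were few at these levels. Of 15 chemokine and defence genes 2 passed the level filter. Cxcl14, a chemokine made by epithelia, was called higher, at 351 CPM in control and 1225 CPM in induced members, with 2.54 UMIs per 10000 in the median control cell and 5.51 in the lower quartile of induced cells, and was 526 and 1318 CPM without the cells that held sebaceous genes. Defb1, a beta-defensin, was called lower, at 82.0 and 34.8 CPM, but not with the rule applied after thinning (-0.64 against -1.13). The antigen presentation genes H2-K1 (122 and 176 CPM), H2-D1 (161 and 218 CPM) and B2m (80.5 and 108 CPM) were not called. Of 16 stress and immediate early genes 2 were called lower, Fosb, a subunit of the AP-1 factor (182 and 71.8 CPM), and the heat shock gene Hspa1a (1847 and 899 CPM), neither of them with the rule applied after thinning, where they were at -0.82 against -1.28 and at -0.75 against -1.03. Hspa1a kept its call under 6 of 10 alternatives and Fosb under 9. Under 0 were 11 of the 16, beside 3419 of all 5862 genes tested, of which 4.28% were called lower.

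Transcripts of other cell types were low in the members but not equal between the libraries. The 6 melanocyte genes summed to 2.13 CPM in control and 27.1 CPM in induced members, and Dct, Pmel or Mlana was seen in 0.747% and 5.26% of thinned cells (2.62% and 15.8% unthinned). The same share was 1.30% and 5.49% in fibroblasts, so it was near the background of each library. The 7 fibroblast genes summed to 65.2 and 20.4 CPM, and Dcn, decorin, was called lower, at 43.1 and 10.2 CPM. The adipocyte gene Fabp4 was at 3.66 and 24.2 CPM. The part of these transcripts in the differences above was not tested.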
